A study of Mus musculus with 9 samples.

Results

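The genes described here are the heat shock protein, DNAJ and CCT chaperonin genes of the mouse, compared between T cell lymphomas driven by MYCN and control T cells that carry CD4. They were taken by symbol from the deposited count table: 96 of its 46078 genes began with Hsp, Cct or Dnaj and the letters or digits of these families, and the 13 pseudogenes among them were set aside, which left 83 members. Of these, 52 code for cytosolic or nuclear proteins, 8 for mitochondrial proteins and 13 for proteins of the endoplasmic reticulum (ER), and 10 were not placed in a compartment. Enough counts for a test were present for 71 members. The other 12 reached at most 22 counts in any library, 5 of them were at 0 counts in every library, and no change is reported for them.

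The study sequenced transcript 3′ ends of 9 RNA samples from C57BL/6J mice. The lymphoma group holds 6 samples of MYCN-induced T cell lymphoma cells from the thymus (34, 53, 56, 70, 72 and 86), and the CD4 group holds 3 samples of splenic CD4+ T cells (1, 2 and 3), the controls. MYCN belongs to the MYC family of transcription factors, and the title of the series concerns the histone methyltransferase EZH2 under aberrant MYCN. The labels give no age, no promoter or cell type that drives MYCN, no sorting step and no batch, and do not say whether the samples came from separate animals, so p-values measure the spread between these samples only. Tissue of origin, cell type and lymphoma state coincide with the groups, and what belongs to each cannot be told apart.

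Chaperones bind unfolded proteins and let them fold, mature or pass a membrane. HSP70 proteins do this in cycles of ATP hydrolysis, in which DNAJ proteins (also called HSP40 or J-proteins) deliver clients and start hydrolysis, and exchange factors such as the HSP110 proteins release the nucleotide. HSP90 takes partly folded clients such as kinases and steroid receptors. The CCT chaperonin is a double ring that encloses actin, tubulin and other clients, and HSP60 with its HSP10 lid is its counterpart in mitochondria. Some of these genes are expressed in all growing cells, whereas others are switched on by heat shock factor 1 after stress, and those of the ER by the unfolded protein response.

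Counts assigned to genes were 11170704 to 15769679 per lymphoma library and 8099960 to 10808828 per CD4 library. A count of 0 allowed a level of up to 0.184 to 0.274 CPM (counts per 1000000 counts in genes) in lymphoma and 0.275 to 0.360 CPM in CD4, which covers counting error only. The T cell gene Cd3e was present in every library (137.5 to 216.97 CPM). Of the 8 T cell markers, Cd4 and Cd2 were called lower in lymphoma and 0 were higher. Cd4 itself lay at 6.04 to 71.9 CPM in lymphoma and at 199 to 263 CPM in CD4. Cd2 lay at 98.8 to 279 CPM in lymphoma and at 289 to 309 CPM in CD4. Cd8a lay at 0.0645 to 29.4 CPM in lymphoma and at 25.6 to 31.8 CPM in CD4. The CD4 libraries also held B cell transcripts: the 12 B cell markers summed to 2065 to 2247 CPM there and to 23.0 to 64.0 CPM in lymphoma, all 12 were called lower in lymphoma, and none was at 0 in every library of a group. Plasmacytoid dendritic cell markers likewise summed to 862 to 876 CPM in CD4 and 95.3 to 369 CPM in lymphoma, with 6 of 6 lower. Myeloid markers summed to 836 to 1060.3 CPM in CD4 and 74.2 to 2182 CPM in lymphoma, with 5 of 10 lower and the highest sum in lymphoma 56. Stromal and thymic epithelial markers summed to 221 to 250 CPM in CD4, where Foxn1, Dcn, Krt5 and Krt8 were at 0, and to 103 to 201 CPM in lymphoma. The sum and the calls of that list went apart: of 7 tested, 2 were higher in lymphoma and 1 was lower (median log2 fold change 0.98). Erythroid markers summed to 89.6 to 295 CPM in CD4 and 11.9 to 755 CPM in lymphoma, with the highest sum in lymphoma 86, and were not called. Xist lay at 493 to 582 CPM in CD4 and 4.66 to 11.3 CPM in lymphoma, and the Y-linked Ddx3y at 0.191 to 0.734 and 119 to 178 CPM, so the sex of the animals coincides with the groups as well. All 10 proliferation genes were higher in lymphoma (summed 2016 to 3323 CPM, against 243 to 287 CPM in CD4). The part of these differences in the results that follow was not tested. In bulk RNA, fewer cells of a type and less RNA per cell cannot be told apart.

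Of the 71 tested members, 26 were higher in lymphoma, 11 were lower and 34 were not called (edgeR quasi-likelihood test, Benjamini-Hochberg adjusted p under 0.05 over 15401 genes). Many genes differed between these groups: 46.6% of all tested genes were called, 24.7% higher and 21.9% lower. Against that background, 36.6% of tested members were higher and 15.5% were lower. The median log2 fold change, lymphoma over CD4, was 0.23 over tested members and 0.04 over all tested genes. Every lymphoma library lay above every CD4 library for 24 members, where 22.6% of all genes did so, and below for 12 members, where 22.3% of all genes did so. These counts describe the members that had enough reads and carry no test of the list.

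The compartments differed in how many of their members moved. Among the 42 tested cytosolic members, 19 rose and 8 fell, with a median log2 fold change of 0.72. Of the 8 mitochondrial members, 6 rose (75%) and 0 fell, and the fitted change was positive for all 8 (median 0.89). Of the 13 ER members, 1 rose (7.69%) and 2 fell (15.4%), and the median was 0.07. The 8 tested members without a compartment held 1 that fell (12.5%), Dnajc4, and a median of -0.71. The counts per compartment depend on which members were placed, and an unplaced member may belong to any of them. Without the 7 tested CCT genes, 35 cytosolic members remained, of which 12 rose (34.3%) and 8 fell (22.9%), with a median of 0.23. No test compared the compartments with each other.

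**Figure D1:**
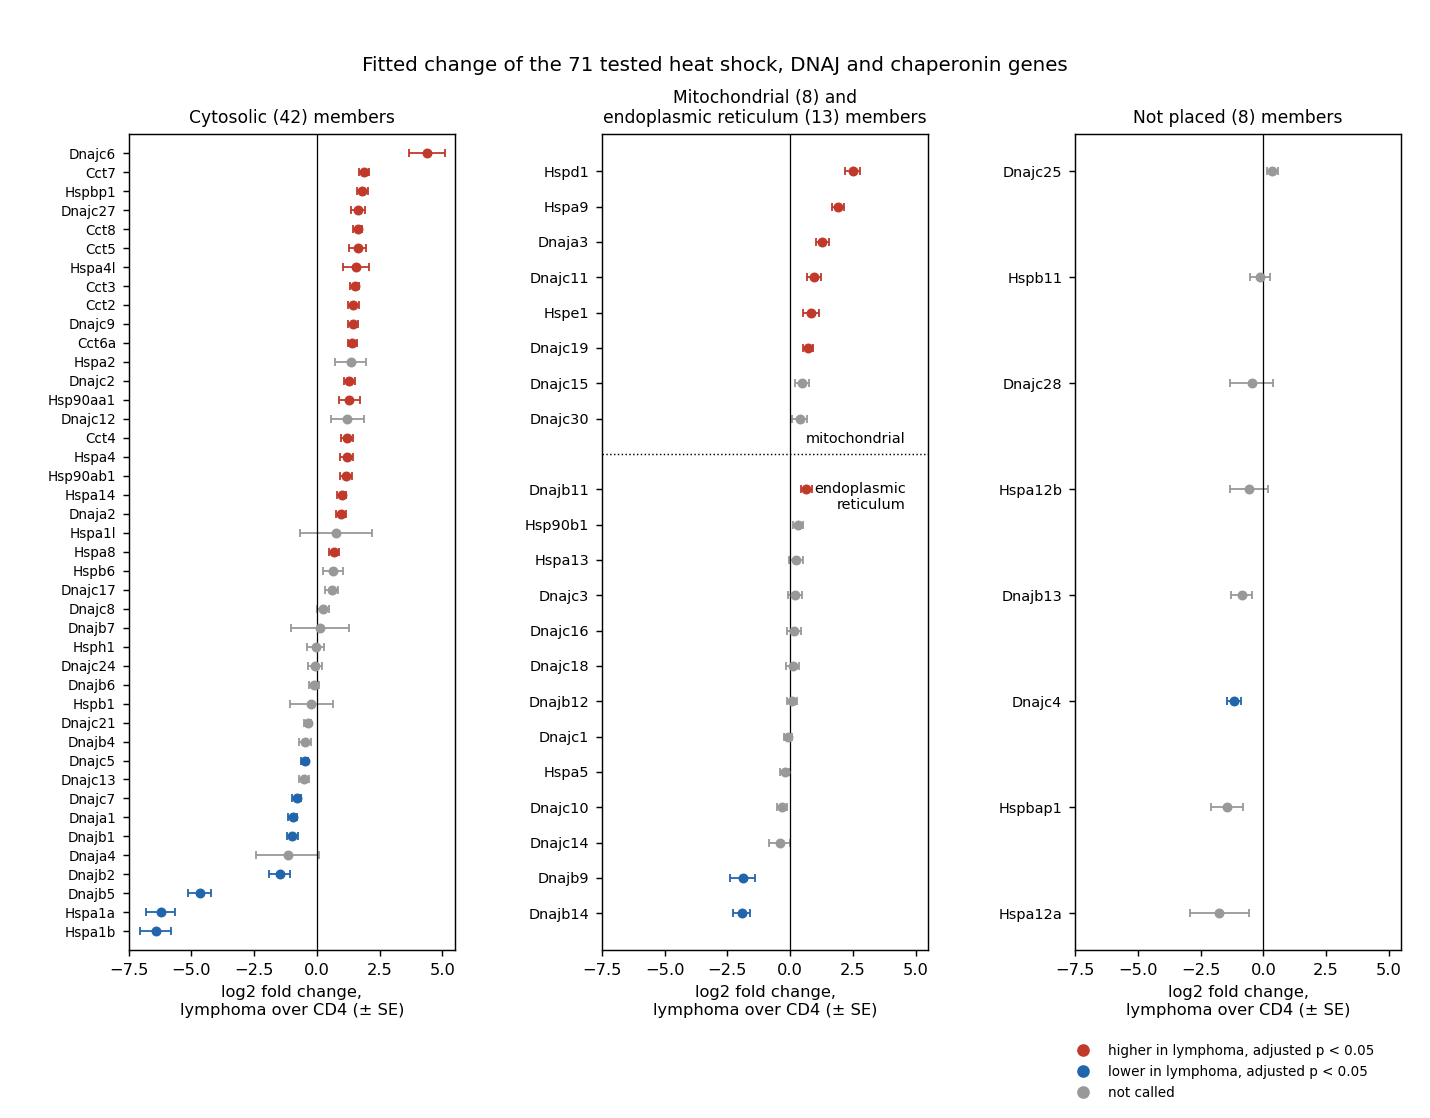
Log2 fold change of the 71 tested members, lymphoma over CD4, with its standard error as bar, in panels by compartment and with called genes coloured. Hspa1a, Hspa1b and Dnajb5 stand far to the left and Dnajc6 far to the right, and the mitochondrial members all lie right of 0.

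The next values summarise the same counts library by library and are no separate support. The CD4 medians are held near 0 because the CD4 mean is subtracted, and no such values were computed for all genes. When each member's log2 CPM was set against its CD4 mean, the median over cytosolic members was 0.54 to 1.23 in the 6 lymphomas and -0.14 to 0.08 in the 3 CD4 libraries. The mitochondrial median was 0.51 to 1.37 in lymphoma and -0.20 to 0.11 in CD4, and the groups did not overlap in either compartment. The ER median was -0.20 to 0.08 in lymphoma and -0.29 to 0.10 in CD4, and here the lymphomas lay within the range of the CD4 libraries.

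**Figure D2:**
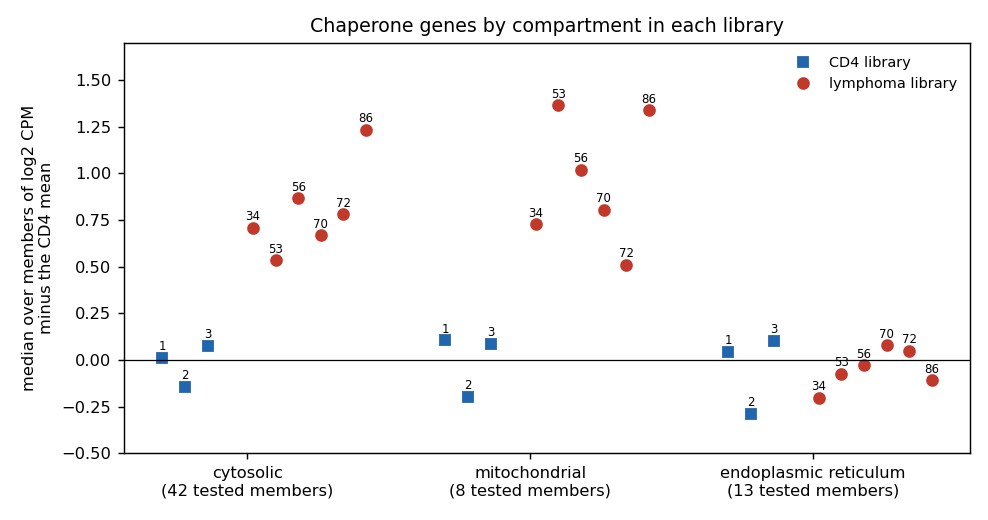
Median over the tested members of each compartment of log2 CPM minus the CD4 mean, 1 point per library, numbered as labelled. Lymphomas lie above the CD4 libraries for cytosolic and mitochondrial members and among them for ER members.

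Members took up a larger share of the counts in lymphoma. They made up 1.43% to 2.02% of gene counts in lymphoma and 0.83% to 1.07% in CD4. Cytosolic members gave 1.15% to 1.71% and 0.62% to 0.81%, mitochondrial members 0.10% to 0.19% and 0.05% to 0.06%, and ER members 0.14% to 0.21% and 0.15% to 0.19%, in lymphoma and CD4 respectively. Hsp90ab1 alone gave 28.8% to 39.6% of the members' counts in lymphoma and 26.2% to 28.4% in CD4. With Hsp90ab1 left out, cytosolic members still took 0.68% to 0.91% of gene counts in lymphoma and 0.40% to 0.51% in CD4.

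Both cytosolic HSP90 genes rose. Hsp90ab1, the constitutive HSP90 beta on chromosome 17 (chr17:45567775-45573271 of GRCm38, minus strand), lay at 2434, 2118 and 3009 CPM in CD4 1, 2 and 3 and had a lowest, median and highest level of 4093, 5294 and 8140.1 CPM in lymphoma. The groups did not overlap, and the log2 fold change was 1.15 (SE 0.238, edgeR adjusted p = 0.00188). Hsp90aa1, the stress-inducible HSP90 alpha, lay at 351, 364 and 593 CPM in CD4 and at 626, 849 and 2224 CPM (lowest, median and highest) in lymphoma. Its groups did not overlap either, with lymphoma 53 far above the rest, and its log2 fold change was 1.29 (SE 0.411, edgeR adjusted p = 0.0248). Without CD4 1 or CD4 2 the Hsp90aa1 call was lost (edgeR adjusted p = 0.0808 and 0.0933), at log2 fold changes of 1.15 and 1.17.

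The HSP70 genes went in opposite directions. Hspa1a and Hspa1b, the paired stress-inducible HSP70 genes, showed the largest falls of all members. Hspa1a had 339, 567 and 1286 counts in CD4 1, 2 and 3 (32.3, 68.0 and 118 CPM) and 15, 21, 10, 8, 25 and 2 counts in lymphomas 34, 53, 56, 70, 72 and 86, at most 1.92 CPM. Hspa1b had 1016, 1144 and 2189 counts in CD4 (96.9, 137 and 201 CPM) and 25, 0, 29, 24, 55 and 15 counts in the lymphomas, at most 3.60 CPM. No lymphoma came near a CD4 library. The fitted log2 fold changes were -6.22 for Hspa1a (SE 0.579, edgeR adjusted p = 1.13e-05) and -6.43 for Hspa1b (SE 0.618, edgeR adjusted p = 2.13e-05).

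Hspa1a (chr17:34969190-34972156) and Hspa1b (chr17:34956436-34959238, both minus strand, GRCm38) are near-identical neighbours. Reads that align to both are not counted for either, so the split between them and their total are uncertain. Their summed counts were 1355, 1711 and 3475 in CD4 1, 2 and 3 and 40, 21, 39, 32, 80 and 17 in lymphomas 34, 53, 56, 70, 72 and 86, which gives 129, 205 and 319 CPM in CD4 and 1.23 to 5.24 CPM in lymphoma. As each gene separated the groups, the sum had to do so as well, and it does not recover the reads left out. Their promoters are also alike: over a stretch of 130 bases upstream in the RefSeq table (GRCm38.p6), 129 were identical. Both hold the heat shock element, the binding motif of heat shock factor 1, searched as GAANNTTC or TTCNNGAA on both strands in the 250 bases before each start. The 30 bases around it are shown because they are the same in both genes, at chr17:34972242-34972271 and chr17:34959324-34959353 on the minus strand, from base -115 to base -86 before the start, with the motif in capitals:

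Hspa1a: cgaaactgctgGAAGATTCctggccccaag

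Hspa1b: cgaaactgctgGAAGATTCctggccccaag

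Hspa8, the constitutive HSC70, was modestly higher. It lay at 608, 406 and 773 CPM in CD4 1, 2 and 3 and at 771, 925 and 1162 CPM in lymphoma (lowest, median and highest), so that CD4 3 met the lowest lymphoma. The log2 fold change was 0.68 (SE 0.210, edgeR adjusted p = 0.0194), and without CD4 2 it was 0.47 and not called (edgeR adjusted p = 0.0869). Hspa14, a ribosome-associated HSP70 relative named here after its values were seen, also rose (log2 fold change 0.98, SE 0.174, edgeR adjusted p = 0.000724). The remaining cytosolic HSP70 genes, Hspa1l and Hspa2, were low and not called, at log2 fold changes of 0.76 and 1.34.

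**Figure D3:**
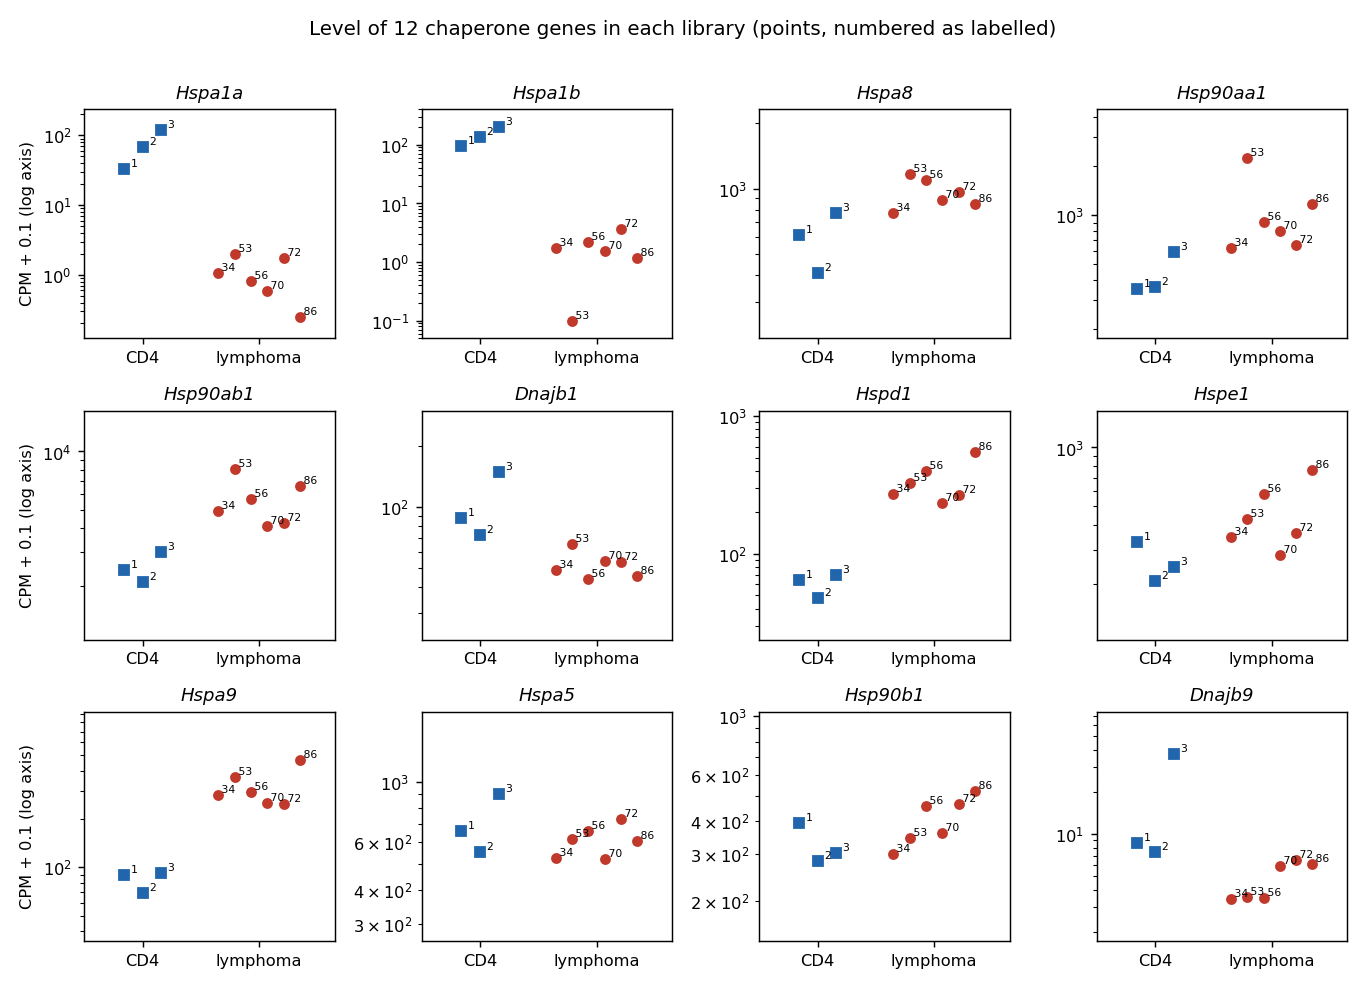
Level of 12 members in each library as CPM plus 0.1 on a log axis, with points numbered as labelled. Hspa1a and Hspa1b are far lower in all 6 lymphomas, Hspd1, Hspa9 and both cytosolic HSP90 genes are higher, and the levels of Hspa5 and Hsp90b1 overlap between the groups.

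The exchange factors of HSP70 were mostly higher. Hspa4, an HSP110 protein, lay at 218, 163 and 154 CPM in CD4 and at 267, 380 and 588 CPM (lowest, median and highest) in lymphoma, without overlap (log2 fold change 1.18, SE 0.242, edgeR adjusted p = 0.00185). Hspbp1, a nucleotide exchange factor of another family, rose from 26.8, 19.6 and 19.6 CPM to 54.0, 79.0 and 96.3 CPM, also without overlap (log2 fold change 1.81, SE 0.227, edgeR adjusted p = 6.00e-05). Hspa4l, named after its values were seen, had a log2 fold change of 1.56 (edgeR adjusted p = 0.0301), with lymphoma 53 at 8.49 CPM below all CD4 libraries. Its call was lost without any 1 of the CD4 libraries (edgeR adjusted p = 0.0693, 0.0826 and 0.108 without CD4 1, 2 and 3). Hsph1, the heat-inducible HSP110, overlapped fully, at 51.4 to 167 CPM in lymphoma and 78.7 to 160 CPM in CD4, and its log2 fold change of -0.04 was not called (SE 0.336, edgeR adjusted p = 0.927).

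Most called J-proteins of classes A and B, the general HSP70 partners, were lower. Of 9 tested cytosolic DNAJA and DNAJB genes, 4 fell (44.4%) and 1 rose (11.1%), beside 21.9% and 24.7% of all tested genes. Dnajb1, the main heat-inducible HSP40, lay at 87.5, 72.2 and 149 CPM in CD4 1, 2 and 3 and at 44.1, 50.8 and 65.2 CPM in lymphoma (log2 fold change -0.99, SE 0.220, edgeR adjusted p = 0.00308). Dnaja1, a farnesylated partner of HSC70, lay at 112, 133 and 173 CPM in CD4 and at 58.6, 73.0 and 84.4 CPM in lymphoma (log2 fold change -0.96, SE 0.180, edgeR adjusted p = 0.000986). Neither gene's groups overlapped. The last 500 exonic bases of Dnaja1 overlap another gene, Smu1, on the opposite strand, and as the strand setting of the counting is not given, its counts are uncertain.

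The largest fall among J-proteins was that of Dnajb5. It had 134, 79 and 138 counts in CD4 (12.8, 9.48 and 12.7 CPM) and 11, 6, 3, 4, 6 and 8 counts in the lymphomas, at most 0.709 CPM, and its log2 fold change was -4.67 (SE 0.455, edgeR adjusted p = 9.65e-06). Dnajb2, a neuron-enriched J-protein that binds ubiquitin chains, fell from 14.2, 13.4 and 20.7 CPM to 2.76, 4.91 and 12.1 CPM (log2 fold change -1.48, SE 0.414, edgeR adjusted p = 0.0116). Lymphoma 53 held its highest lymphoma level, and without CD4 3 the Dnajb2 call was lost (log2 fold change -1.25, edgeR adjusted p = 0.0656). Dnaja2 was the exception in direction: named after its values were seen, it rose from 96.95 to 114 CPM in CD4 to 172 to 283 CPM in lymphoma (log2 fold change 0.97, SE 0.199, edgeR adjusted p = 0.00181).

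DNAJC proteins are specialised J-proteins with separate tasks. Of 12 tested cytosolic members, 4 rose (33.3%) and 2 fell (16.7%), beside 24.7% and 21.9% of all tested genes. Dnajc6 encodes auxilin, which helps HSC70 strip clathrin from vesicles. It lay at 1.14, 0.240 and 3.58 CPM in CD4 1, 2 and 3 and at 11.1, 39.3 and 49.2 CPM (lowest, median and highest) in lymphoma, with the lowest value in lymphoma 53 and no overlap. The log2 fold change was 4.39 (SE 0.710, edgeR adjusted p = 0.00051), and 5.63 without CD4 3. Dnajc27, a small GTPase with a J domain, rose from 4.68, 9.36 and 6.51 CPM to 16.2, 21.3 and 26.2 CPM (log2 fold change 1.64, SE 0.286, edgeR adjusted p = 0.000639).

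The other called DNAJC genes are named after their values were seen. Dnajc9, a histone chaperone, rose by 1.44 (SE 0.186, edgeR adjusted p = 7.42e-05) and Dnajc2, the ribosome-associated zuotin homologue, by 1.29 (SE 0.220, edgeR adjusted p = 0.000546) on the log2 scale. Dnajc7, which links HSP70 with HSP90, fell by 0.81 (SE 0.188, edgeR adjusted p = 0.00403) and Dnajc5, the cysteine string protein, by 0.50 (SE 0.146, edgeR adjusted p = 0.0152) on that scale. The Dnajc5 call was lost without CD4 2 or CD4 3 (edgeR adjusted p = 0.0604 and 0.0555). Dnajc17 lay above CD4 in every lymphoma and Dnajc21 below it, and neither was called (edgeR adjusted p = 0.0739 and 0.051).

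All 7 tested subunit genes of the CCT chaperonin rose, with log2 fold changes from 1.20 to 1.87 (median 1.50), and no lymphoma overlapped a CD4 library for any of them. The testis form Cct6b was too low to test. Cct7 showed the largest rise, from 205, 193 and 190 CPM in CD4 to 541, 722 and 867 CPM in lymphoma (log2 fold change 1.87, SE 0.186, edgeR adjusted p = 1.12e-05). Cct4 showed the smallest, from 182, 117 and 153 CPM to 257, 318 and 451 CPM (log2 fold change 1.20, SE 0.225, edgeR adjusted p = 0.00104). Between them lay Cct6a at 1.41, Cct2 at 1.44, Cct3 at 1.50, Cct5 at 1.62 and Cct8 at 1.62 on the log2 scale. Cct5 reached 741 CPM in lymphoma 53 and 261 to 349 CPM in the other lymphomas. The last 500 exonic bases of Cct8 overlap Usp16 on the opposite strand by 192 bases, so its counts are uncertain in part.

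Tcp1, the remaining core subunit, has a symbol outside the Cct series and is no member. It lay at 77.3, 69.4 and 115 CPM in CD4 and at 97.4, 121 and 160 CPM in lymphoma, where the groups overlapped. The Tcp1 change of 0.48 on the log2 scale was not called (SE 0.208, edgeR adjusted p = 0.0765), and it was called without lymphoma 53 (0.53, edgeR adjusted p = 0.032) and without CD4 3 (0.74, edgeR adjusted p = 0.021). The last 500 exonic bases of Tcp1 overlap genes on the opposite strand by 263 bases, so its counts too are uncertain in part. The difference between Tcp1 and the other subunits was not tested. Summed over the members, CCT genes took 0.28% to 0.38% of gene counts in lymphoma and 0.10% to 0.12% in CD4.

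**Figure D4:**
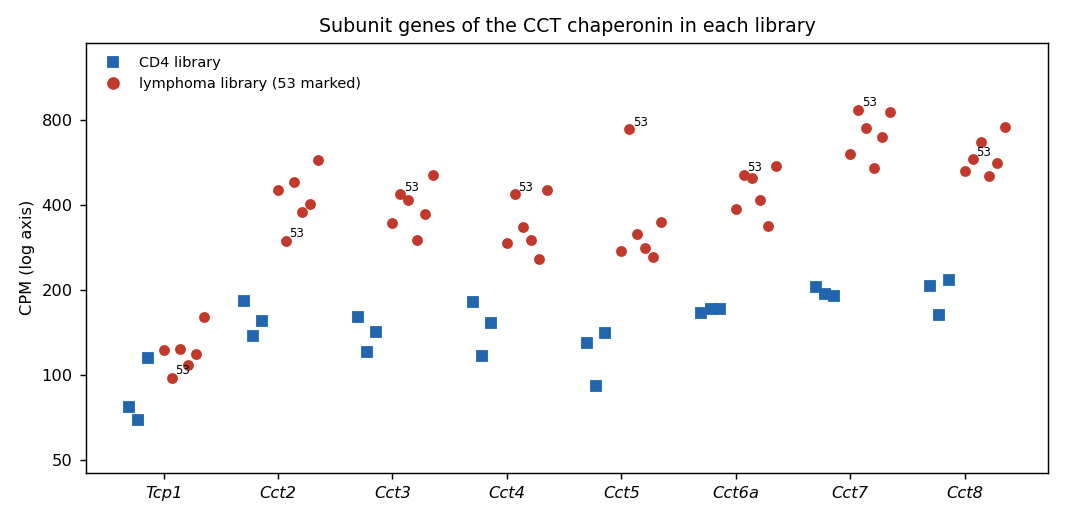
Level in CPM on a log axis of Tcp1 and the 7 tested CCT members in each library, with lymphoma 53 marked. The groups are apart for the 7 members and overlap for Tcp1, and lymphoma 53 stands alone for Cct5.

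Small heat shock proteins were scarce. Of 7 listed, 5 had too few counts, and Hspb1 and Hspb6 were not called, at log2 fold changes of -0.22 and 0.64.

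Most mitochondrial members rose, by unequal amounts. Hspd1 encodes HSP60 (chr1:55077835-55088243, minus strand) and Hspe1 its lid HSP10 (chr1:55088132-55091307, plus strand). Hspd1 lay at 64.1, 47.5 and 69.5 CPM in CD4 1, 2 and 3 and at 232, 300 and 547 CPM (lowest, median and highest) in lymphoma, without overlap (log2 fold change 2.50, SE 0.297, edgeR adjusted p = 4.00e-05). Hspe1 lay at 329, 209 and 245 CPM in CD4 and at 284, 399 and 771 CPM in lymphoma, and CD4 1 lay above the lowest lymphoma, number 70. The Hspe1 log2 fold change of 0.83 was just called (SE 0.303, edgeR adjusted p = 0.0413), and the call was lost without lymphoma 56, CD4 2 or CD4 3 (edgeR adjusted p = 0.0619, 0.153 and 0.118).

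The log2 ratio of Hspd1 to Hspe1 counts was -2.36, -2.13 and -1.82 in CD4 1, 2 and 3, and -0.53 to -0.29 in the 6 lymphomas. The ratios of the groups lay far apart, at means of -2.10 ± 0.272 (SD, n = 3) and -0.42 ± 0.0871 (SD, n = 6). The pseudogene Hspd1-ps3 held counts amounting to 17.0% to 29.2% of those of Hspd1 in every library, so some Hspd1 reads may be counted there or left out as aligning to more than 1 place.

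Hspd1 and Hspe1 are read in opposite directions from starts that overlap, sharing 112 exonic bases in the annotation, none of them in the last 500 of either gene. A stretch with 3 overlapping matches to the heat shock element falls within the 250 bases before a RefSeq start of each gene, and it is shown because both promoters hold it. It is inside the annotated Hspd1 gene, at chr1:55088053-55088082 (GRCm38.p6, plus strand), from base -95 to base -66 before the start of Hspe1, with the matches in capitals:

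Hspe1: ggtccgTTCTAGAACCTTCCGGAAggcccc

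Hspa9, the mitochondrial HSP70 (mortalin) that pulls proteins through the inner membrane, lay at 89.6, 69.4 and 92.5 CPM in CD4 and at 246, 288 and 464 CPM in lymphoma, without overlap (log2 fold change 1.92, SE 0.237, edgeR adjusted p = 5.40e-05). Its J-protein Dnaja3 rose from 15.8, 13.3 and 12.5 CPM to 25.7, 31.5 and 47.9 CPM (log2 fold change 1.28, SE 0.256, edgeR adjusted p = 0.0016). Dnajc11, of the cristae junction, rose by 0.95 on the log2 scale (SE 0.293, edgeR adjusted p = 0.0193), with its highest level in lymphoma 53, and was not called without CD4 2 (edgeR adjusted p = 0.0818). Dnajc19, a J-protein at the import motor that is named after its values were seen, had 0.72 (SE 0.204, edgeR adjusted p = 0.0122). Dnajc15 and Dnajc30 were not called, at 0.47 and 0.38.

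The main ER chaperones were not called. Hspa5, the ER HSP70 known as BiP (chr2:34771970-34777547, plus strand), lay at 660, 552 and 906 CPM in CD4 1, 2 and 3 and at 518, 610 and 731 CPM in lymphoma, with overlap (log2 fold change -0.21, SE 0.178, edgeR adjusted p = 0.352). Hsp90b1, the ER HSP90 known as GRP94, lay at 395, 282 and 304 CPM in CD4 and at 301, 409 and 519 CPM in lymphoma (log2 fold change 0.32, SE 0.198, edgeR adjusted p = 0.21). A p above the threshold does not show that the levels were equal.

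The called ER members were all J-proteins. Dnajb11, the BiP partner ERdj3, rose from 53.1, 38.6 and 58.0 CPM to 62.7, 72.1 and 115 CPM (log2 fold change 0.64, SE 0.224, edgeR adjusted p = 0.0334), and was not called without CD4 1 or CD4 2 (edgeR adjusted p = 0.0544 and 0.143). Dnajb14, an ER membrane J-protein, fell from 43.4, 69.4 and 59.0 CPM to 6.57, 14.8 and 22.8 CPM (log2 fold change -1.93, SE 0.341, edgeR adjusted p = 0.000693). Dnajb9, the BiP partner ERdj4 and a target of the transcription factor XBP1, lay at 8.49, 7.32 and 37.2 CPM in CD4 1, 2 and 3 and at 3.35, 4.64 and 6.48 CPM in lymphoma (log2 fold change -1.89, SE 0.486, edgeR adjusted p = 0.00732). CD4 3 decided the size of that fall, which without it was -0.72 and not called (edgeR adjusted p = 0.209). The other 10 ER members lay between -0.42 and 0.32 on the log2 scale and were not called. Plasma cell markers, which include the secretory regulator Xbp1, summed to 146 to 239 CPM in CD4 and 36.7 to 61.6 CPM in lymphoma (4 of 6 tested lower, 1 higher), and their part in the ER values was not tested.

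The ER stress response element (ERSE), a binding site of unfolded protein response factors, was present in the 250 upstream bases of Hspa5, Hsp90b1 and Dnajc3, and in 0.162% of the 9849 tested genes with a promoter in the RefSeq table. These 3 genes, none of them called, carry the textbook element, so 1 site of each is shown with the match in capitals. The Hspa5 site lies inside the annotated gene, before a RefSeq start further in. The sites are at chr2:34772019-34772048 (plus strand), chr10:86705633-86705662 (minus strand) and chr14:118937821-118937850 (plus strand) of GRCm38.p6:

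Hspa5: acttcaCCAATCGGAGGCCTCCACGacggg

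Hsp90b1: acaagcCCAATCGCAAGGAGCCACGcttcg

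Dnajc3: ccacaaCCAATCAGCGCCAACCACGacccg

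The heat shock element was found in members of either direction. A promoter was found for 68 members, 59 of them tested. Hsp90aa1, Hsp90ab1, Hspa8, Hspa9 and Cct4 were among those without one and were not searched. The heat shock element was in 15 of the 59 (25.4%) and in 12.3% of the 9849 genes. Among its carriers were the lower Hspa1a, Hspa1b and Dnaja1, the higher Hspd1, Hspe1, Cct2, Cct5 and Dnajc27, and the uncalled Hsph1 and Hspb1. The lower Dnajb1 was searched and held no match. Sites of a lower, a higher and an uncalled gene are shown for comparison with those of Hspa1a and Hspe1. Those of Dnaja1 and Cct2 lie inside the annotated genes, before a RefSeq start further in. That of Hsph1 spans the annotated start of the gene. The window before the outer RefSeq start of Cct2 held no match. The sites are at chr4:40722333-40722362 (plus strand), chr10:117063399-117063428 (minus strand) and chr5:149636351-149636380 (minus strand) of GRCm38.p6:

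Dnaja1: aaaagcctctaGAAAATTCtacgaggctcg

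Cct2: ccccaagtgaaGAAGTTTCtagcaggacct

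Hsph1: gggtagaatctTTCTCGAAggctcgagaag

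The E-box CACGTG, a motif bound by MYC family factors, was in 6 of the 59 members (10.2%) and in 9.61% of genes, and Hspd1 was the only called riser among these 6. The CCAAT box, searched as CCAAT on both strands and also contained in the ER stress response element, was in 24 members (40.7%) and in 40.0% of genes. A match describes letters in the window and is no measurement of binding.

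Hspa1a, Hspa1b and Dnajb1 were highest in CD4 3, where immediate early genes were also highest. The summed level of the 10 immediate early genes was 572, 775 and 2590 CPM in CD4 1, 2 and 3 and 197 to 335 CPM in lymphoma, with 8 of the 10 called lower in lymphoma and none at 0 in every library of a group. Jun lay at 126, 240 and 910 CPM in CD4 1, 2 and 3, and Hspa1a with Hspa1b at 129, 205 and 319 CPM. Over all 71 tested members, CD4 3 held the highest CD4 level for 31, CD4 1 for 27 and CD4 2 for 13, and Hspe1 was among those highest in CD4 1. The part of immediate early expression in these levels was not tested. Without CD4 3, the members called lower in lymphoma numbered 8 in place of 11, and Hspa1a and Hspa1b stayed among the called genes. CD4 2 had the fewest gene counts (8099960) and the largest share of unaligned reads (22.7%). It held the lowest CD4 level for 34 of the 71 tested members and for 18 of the 26 that rose. Without CD4 2, 16 cytosolic and 4 mitochondrial members were called higher, in place of 19 and 6.

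The lymphomas also differed among themselves. Among the 26 members that rose, lymphoma 86 held the highest lymphoma level for 13 and lymphoma 53 for 8. For the lowest level, lymphomas 53, 70 and 72 held 7 each and lymphoma 34 held 5. Lymphoma 53 was thus often at an end of the range: over all 71 tested members it was the highest lymphoma for 19 and the lowest for 24. It also stood apart outside the members, with the fewest gene counts of the lymphomas (11170704). Mki67 lay at 165 CPM in it and 455 to 503 CPM in the others, and Cd8a at 29.4 and at most 1.53 CPM. Its plasmacytoid dendritic cell markers summed to 369 CPM, against at most 122 CPM in the others. In lymphoma 86 the erythroid markers summed to 755 CPM, against 11.9 to 194 CPM in the other lymphomas. The part of these differences in the member levels of lymphomas 53 and 86 was not tested.

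Partner genes outside the symbol families were read from lists of the same pathways, beside the 24.7% of all tested genes called higher and the 21.9% called lower. Of 3 tested genes in the heat shock factor list, 1 was higher: Hsbp1, which is no factor but a binding protein that restrains heat shock factor 1. Its log2 fold change was 0.66 (SE 0.186, edgeR adjusted p = 0.0123, lost without CD4 2 at 0.0593). Hsf1 itself lay at 26.8 to 46.5 CPM in lymphoma and 27.6 to 36.4 CPM in CD4 and was not called (log2 fold change 0.27, edgeR adjusted p = 0.304). Hsf2 was not called either (log2 fold change -0.94, edgeR adjusted p = 0.127). Of 20 tested cytosolic cochaperones, 13 were higher (65.0%) and 0 lower. Bag2, which regulates HSP70 exchange, rose from 0.763, 0 and 0.734 CPM to 12.5, 18.2 and 31.0 CPM (log2 fold change 5.25, edgeR adjusted p = 5.17e-05). Fkbp5, an HSP90 cochaperone of steroid receptors, rose from 29.96, 22.0 and 22.5 CPM to 116, 144 and 376 CPM (log2 fold change 2.85, edgeR adjusted p = 0.000191).

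Of 15 chaperonin partners, which include Tcp1, prefoldin and the tubulin cofactors, 6 were higher (40.0%) and 0 lower. The largest rises were those of the prefoldin subunits Pfdn6 (log2 fold change 1.50, edgeR adjusted p = 0.00143) and Pfdn1 (1.05, edgeR adjusted p = 0.00225). Of 13 mitochondrial folding and proteolysis genes, 6 were higher (46.2%) and 0 lower, led by the matrix protease Lonp1 (1.60, edgeR adjusted p = 4.48e-05) and the mitochondrial HSP90 gene Trap1 (1.60, edgeR adjusted p = 0.000348). Of 27 genes of ER folding and the unfolded protein response, 9 were higher (33.3%) and 6 lower (22.2%), shares near those of all genes. Canx, the lectin chaperone calnexin, rose by 1.67 (edgeR adjusted p = 3.26e-05), P4hb, a disulfide isomerase, by 1.47 (edgeR adjusted p = 0.000409) and Hyou1, the ER HSP110, by 0.82 (edgeR adjusted p = 0.00585) on the log2 scale. Ero1lb, an ER oxidase, fell by 1.74 (edgeR adjusted p = 0.00287, and by 1.15 without CD4 1) and Syvn1, a ubiquitin ligase of ER-associated degradation, by 1.23 (edgeR adjusted p = 0.00109) on that scale.

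Among members without a compartment, Dnajc4 fell from 23.0, 23.6 and 18.99 CPM in CD4 to 5.97, 9.53 and 13.4 CPM in lymphoma (log2 fold change -1.17, SE 0.292, edgeR adjusted p = 0.00606). The other 7 tested ranged from -1.75 to 0.36 and were not called. The 15 uncalled cytosolic members ranged from -1.16 to 1.34, and 32 of the 83 members share exonic bases with another gene, 10 of them in the last 500 bases where 3′ reads fall.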

How the data were processed

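The deposited table holds raw read counts per gene and library beside Ensembl IDs and symbols, per the file headers. The authors' tools were FastQC, HISAT2, SAMtools and HTSeq with mm10/GRCm38, per the submitters' processing notes. Versions, annotation release and strand setting are not given in the sources used here. RNA was extracted with a Promega Maxwell kit and libraries were standard Illumina ones, per the labels' protocols. The 5 summary rows for unassigned reads were left out of library sizes and tests, and genes took 38.7% to 49.1% of reads in lymphoma and 27.8% to 35.0% in CD4. Reads aligning to more than 1 place are in no gene's count.

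Counts of all 9 libraries were fitted together in edgeR 4.0.16 (R 4.3.3): filterByExpr with a minimum count of 10 (15401 genes kept), TMM scaling, glmQLFit (robust) and glmQLFTest without covariates, and Benjamini-Hochberg adjustment over all genes at 0.05. The script was tested on simulated data. SE is the absolute log2 fold change over the square root of F. CPM is on the TMM-scaled size, log2 CPM used a prior count of 2, and CPM of different genes are not compared. The floor for a count of 0 was 3 counts. Positions of all 83 members are from GENCODE M21, and promoter sequences from RefSeq (GRCm38.p6).

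Members, compartments and lists were chosen with earlier results of these data known. Named are the core HSP90, HSP70, HSP60, CCT, Dnaja1 and Dnajb1 genes, the 4 largest called rises and falls per compartment and the 2 largest per partner list, with Tcp1, Hsf1, Trap1 and Hyou1. Called members outside this rule are said to be named after their values were seen. Alternatives were other scalings, filters, DESeq2 1.42.0, limma voom (limma 3.58.1), a threshold of 0.01 and leaving out each library. No pair of libraries agreed within sampling noise.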

Additional observations from a re-analysis of the deposited data

Results flagged for a closer look

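Among the 6 lymphomas, 1 library stood far from the rest in 9 of 62 measures examined, where chance gives about 1 in 20 (3.1). Lymphoma 53 was the distant library in 8 of them. In log2 CPM it was low for Hspa1b at -2.68 (the others 0.31 to 1.91), Dnajc6 at 3.5 (5.12 to 5.62), Hspa4l at 3.11 (5.48 to 6.13) and Hsf1 at 4.76 (5.26 to 5.54). The Hspa1b value stands for a count of 0, and the near-identical Hspa1a had 21 counts in that library. Summed with Hspa1a, lymphoma 53 lay at 1.92 CPM, inside the lymphoma range of 1.23 to 5.24 CPM. Lymphoma 53 was high for Cct5 at 9.53 (8.03 to 8.45), Dnajb11 at 6.85 (5.97 to 6.29) and Fkbp5 at 8.55 (6.86 to 7.48). The members without a compartment took 0.0103% of its gene counts, against 0.00538% to 0.00722% in the others. Lymphoma 86 was the distant library for Hspa14, at 7.31 against 6.75 to 6.87.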

How the results depend on the processing

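Of 40 named members, 37 were called, and 28 of these kept their call in each of the up to 16 alternative fits that gave a value. The other 9 lost it in at least 1 and none reversed. Hspa1a, Hspa1b, Dnajb5, Dnajc6 and the partner Bag2 gave no value under a filter of 10 counts in every library. At an adjusted p under 0.01 in the same fit, 19 members were higher and 9 lower, without Hspa8, Hsp90aa1, Hspe1, Hspa4l, Dnajb11, Dnajc11, Dnajc19, Dnajb2 and Dnajc5. The number of members higher in lymphoma (26) was 20 to 27 and the number lower (11) was 8 to 16 with 1 library left out. Upper quartile scaling moved the median of all genes by -0.10, and turned the ER median from 0.069 to -0.029, which relative to the median of all genes is 0.027 and 0.032. With 1 library left out, the ER median was -0.081 (without CD4 2) to 0.21 (without CD4 1) and the cytosolic median 0.68 to 1.02 (without CD4 1), with 1.003 without lymphoma 72. Changes that were not called changed sign for Hspa5 (-0.36 to 0.015, positive without CD4 3) and Hsph1 (-0.24 to 0.33, positive at 0.14 without lymphoma 34, 0.068 without lymphoma 70 and 0.33 without CD4 3). Hspe1 was not called under RLE or upper quartile scaling (adjusted p = 0.0535 and 0.0602), nor Dnajb11 under the latter (0.0547), Hsp90aa1 without a filter on low counts (0.0541) or Hspa4l without that filter (0.0726) or in limma voom (0.117). The causes were not tested. No paired analysis was possible because the groups share no replicate number. Depth limited the tests of low members, and 3 CD4 libraries limit every comparison.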
